A study of Mus musculus with 48 samples.

Results

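Hind limb unloading lifts the rear of a mouse so that the hind limbs bear no weight, and it serves as a ground model of weightlessness. Here 6 hypothalamus libraries from early hind limb unloading were set against 6 from early free-moving mice, which makes 12 of the 48 libraries of the study. Library titles ending in 2 gave the unloaded series and titles ending in 1 gave the free-moving series. The libraries were paired by the first number in the title (1, 5, 9, 13, 17 or 21), whose unit the labels do not give. Both series came from male C57BL/6 mice (C57BL/6N in the design text), 2 months old, kept at 10 dBA and normal air pressure. Each library is a pool of 3 mice, and no genetic change or drug is named for either series. The length of unloading is not given in the sources used here. A second pair of early series carries the same labels on 12 other libraries. The values are RPKM, read density scaled by gene length and sequencing depth, for 21558 genes. How the pools of a series relate to one another is not stated, so a p-value here speaks of the spread from pool to pool and no more.

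The hypothalamus controls feeding, water balance, body temperature, hormone release from the pituitary and the daily rhythm through small groups of peptide-making neurons. Its messenger RNA comes from 2 genomes. The mitochondrial genome encodes 13 proteins of the respiratory chain, and all other subunits of that chain, as well as the enzymes that feed it, are made from nuclear genes. Because RPKM is a relative unit, a larger share for mitochondrial transcripts leaves a smaller share for all others.

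No gene passed the test between the series in either fit, without or with the mitochondrial share as a covariate. Without it, most nuclear genes stood higher in the unloaded series, and the 13 mitochondrial genes stood lower. Synaptic vesicle, potassium channel, glutamate receptor, glucocorticoid-induced and glycolysis genes were among the groups above the general shift. With the covariate, that shift was gone, and the genes with the smallest p were mostly lower in the unloaded series. The mitochondrial share itself was 41.8% ± 16.3 (SD, n = 6) of all RPKM in free-moving and 20.5% ± 13.7 (SD, n = 6) in unloaded libraries, and it was lower in unloading in 5 of 6 title numbers.

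Several libraries stood apart. By an estimate from the smallest steps between RPKM values, depth ran from 28.4 to 55.2 M reads. The 12 libraries correlated at 0.922 to 0.993 with each other, and 0 pairs were identical. Free-moving library 1 had the lowest depth, the most genes listed at 0 (6011 against 4633 to 5742 in the other 11) and a mitochondrial pattern of its own, described below. Unloaded library 1 was the 1 unloaded library with a high mitochondrial share. Unloaded library 9 held 12137 RPKM of the anterior pituitary markers against 2.73 to 66.2 in the other 5 unloaded and 4.63 to 29.1 in the free-moving libraries. In that library Gh, growth hormone, stood at 10146 RPKM and Prl, prolactin, at 1854 RPKM. For the labelled tissue, the summed level of 14 hypothalamic transcription factors was 42.6 to 92.2 RPKM in free-moving and 48.4 to 102.6 RPKM in unloaded libraries. All 14 passed the filter on low values, which is a mean over the 48 libraries. A single member could be near 0 in a library, as Lhx1 was in free-moving library 1 (0.0534 RPKM).

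The mitochondrial share split the pairs unevenly. In free-moving libraries 1, 5, 9, 13, 17 and 21 it was 37.0%, 18.7%, 54.4%, 48.5%, 62.4% and 29.7%. In the unloaded libraries of the same numbers it was 48.2%, 16.4%, 14.3%, 11.2%, 14.7% and 18.5%. Numbers 9, 13 and 17 therefore carried the gap, number 21 had a smaller one (−11.2 points), number 5 little (−2.30 points), and number 1 went the other way (11.2 points), so the 2 series overlap. The mean difference was −21.2 percentage points (SD of the 6 differences 23.8). The exact two-sided paired permutation test gave p = 0.09375, where 0.03125 is the smallest that 64 sign flips allow. Without the pairing, the exact permutation test gave p = 0.0303. Without number 1 the difference was −27.7 points, lower in all 5 remaining pairs, with an exact paired permutation p of 0.0625, the smallest that 5 pairs allow. In the second early pair of series the share was 44.5% ± 7.35 in free-moving and 34.3% ± 8.80 in unloaded libraries (SD, n = 6 each; lower in 4 of 6; exact paired permutation p = 0.125).

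**Figure D1:**
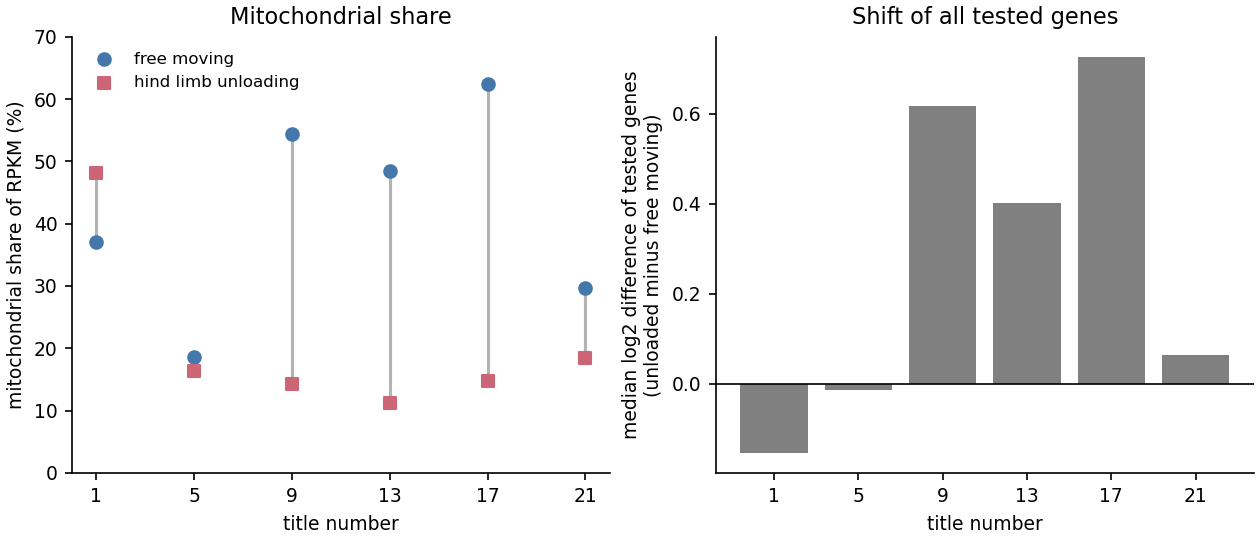
Left, the share of summed RPKM held by the 13 mitochondrial genes in each of the 12 libraries (y axis, percent) by title number (x axis), circles for free moving and squares for hind limb unloading, joined within a number; number 1 is the only one where the unloaded library is higher. Right, the median log2 difference of the 13685 tested genes for each number (bars, unloaded minus free moving); numbers 9, 13 and 17 stand at 0.40 to 0.73 and the others between −0.15 and 0.06.

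The tested genes as a whole went along with this share. For numbers 1, 5, 9, 13, 17 and 21 the median log2 difference of the 13685 genes was −0.15, −0.01, 0.62, 0.40, 0.73 and 0.06. The percent of genes higher in the unloaded library was 38.2, 46.8, 84.6, 82.0, 89.8 and 60.9 in the same order. The shift was thus large in the numbers whose mitochondrial shares lay far apart and small or opposite in the others. Over the 12 libraries the first principal component of the tested genes held 65.7% of the variance. Its scores followed the log2 odds of the mitochondrial share with Pearson's r = 0.954 (permutation p = 4.0e-05) and Spearman's rho = 0.951 (permutation p = 3.0e-05), the only relation of this kind computed. Without the 2 libraries farthest from the median share r was 0.922 (n = 10). Within the free-moving series r was 0.903 and within the unloaded series 0.984 (n = 6 each), with unloaded library 1 far from the other 5. The 13 mitochondrial genes are among the genes of the component. RPKM is relative, so a larger mitochondrial share lowers the other genes together, and part of this relation is set by the unit. The permutations shuffled all 12 libraries freely, without regard to series or title number, so their p-values are descriptions.

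**Figure D2:**
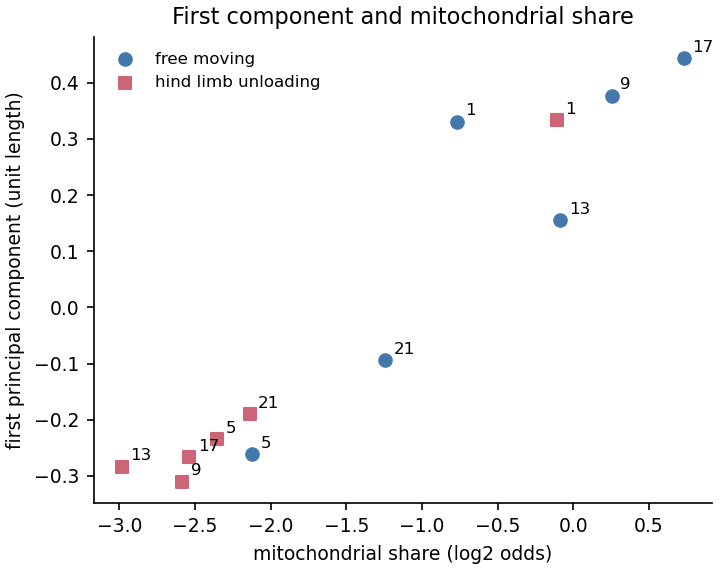
The first principal component of log2(RPKM + 0.5) over the tested genes (y axis, unit length, so its sign is arbitrary) against the log2 odds of the mitochondrial share (x axis), 1 point per library with its title number, circles for free moving and squares for hind limb unloading. Unloaded libraries 5, 9, 13, 17 and 21 and free-moving library 5 lie together at the low end, and unloaded library 1 lies among the free-moving libraries at the high end.

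The mitochondrially encoded genes, which supply the core subunits of complexes I, III, IV and V, were all lower in unloading on the fitted mean. With limma on log2(RPKM + 0.5), 12 of 13 had an unadjusted p under 0.05 and lower values, against 1.89% of all tested genes (258 of 13685), and 0 were higher, against 27.8% (3801). Beyond that unadjusted level, 0% of all tested genes passed an adjusted p of 0.05, and the smallest adjusted p was 0.0772, shared by 404 genes. mt-Co2, a subunit of cytochrome c oxidase, ran from 7914 through a median of 30071 to 54628 RPKM in free-moving and from 4512 through 6682 to 27437 RPKM in unloaded libraries. It was lower in 6 of 6 numbers, with a log2 difference of −1.64 ± 0.35 (SE; adjusted p = 0.0772). mt-Nd3, a subunit of complex I, had medians of 4757 and 1056 RPKM and a difference of −1.58 ± 0.31, also lower in 6 of 6. mt-Nd6, the 1 subunit read from the other strand of the circle, had medians of 6994 and 1879 RPKM and a difference of −1.49 ± 0.30. Whether counting used the strand is not given, so reads from its antisense RNA cannot be told apart from its own.

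Free-moving library 1 did not share the usual ratio between these transcripts. mt-Co1 stood at 2.29 to 2.64 times mt-Co2 in the other 5 free-moving libraries and at 2.54 to 3.06 times in the unloaded libraries, but at 0.590 times in free-moving library 1. mt-Nd4l, which overlaps mt-Nd4, was at 674.0 RPKM there and at 2039 to 12963 RPKM in the other free-moving libraries. Without number 1 the difference of mt-Co1 moved from −1.14 to −1.64 and that of mt-Nd4l from −1.09 to −2.01. Under quantile normalization, which forces equal distributions, mt-Co1 stood at 0.19. The 5 mitochondrial genes lower in 6 of 6 numbers were mt-Co2, mt-Co3, mt-Atp6, mt-Nd3 and mt-Nd6.

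Nuclear genes leaned the other way. The median log2 difference over all tested genes was 0.28, 83.2% of genes (11387) were higher in unloading, and 1756 were higher against 200 lower in 6 of 6 numbers. Past a fold of 2 there were 76 genes higher and 13 lower, and all of the 13 were mitochondrial. Median centring or quantile normalization takes this general lean away, setting the median at −0.03 and 0.01, so group medians are given below also against the median of all genes. The RPKM of the 2 series did not overlap for 65 genes, 0.475% of those tested, of which 47 were higher in unloading. In the fit over all 48 libraries, which borrows the spread of the other series, 39.5% of genes (5404) were called higher and 2.51% (344) lower for the same comparison, with the same log2 differences. Spreads were known from earlier results to differ much between the series. A spread shared with the late series can be too small for these libraries, and the p-values of that fit too small as well.

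The genes with the smallest p without the covariate were higher in unloading. Ptprn2, a phosphatase-like protein of dense-core secretory vesicles, ran from 0.725 through a median of 6.22 to 16.1 RPKM in free-moving and from 7.15 through 17.9 to 23.8 RPKM in unloaded libraries. It was higher in 6 of 6 numbers, by 1.62 ± 0.28 (log2, SE; limma adjusted p = 0.0772; 0.00374 in the fit over 48 libraries). The gene lies on chromosome 12 at 116485720 to 117276849, plus strand (GRCm38, GENCODE M21). Ubxn6, a cofactor of the ATPase p97, on chromosome 17 (56067045 to 56075028, minus strand), had medians of 8.84 and 21.4 RPKM and a difference of 1.19 ± 0.20. Rab5if, an interactor of the endosomal GTPase Rab5, and Arl10, a small GTPase of the Arf family, differed by 1.34 ± 0.24 and 1.72 ± 0.30. For all 4 the lowest of the 12 libraries was free-moving library 1 (Arl10 0.0409 RPKM), and free-moving library 5 overlapped the unloaded range. Without number 1 the 4 differences were 1.20 to 1.64.

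**Figure D3:**
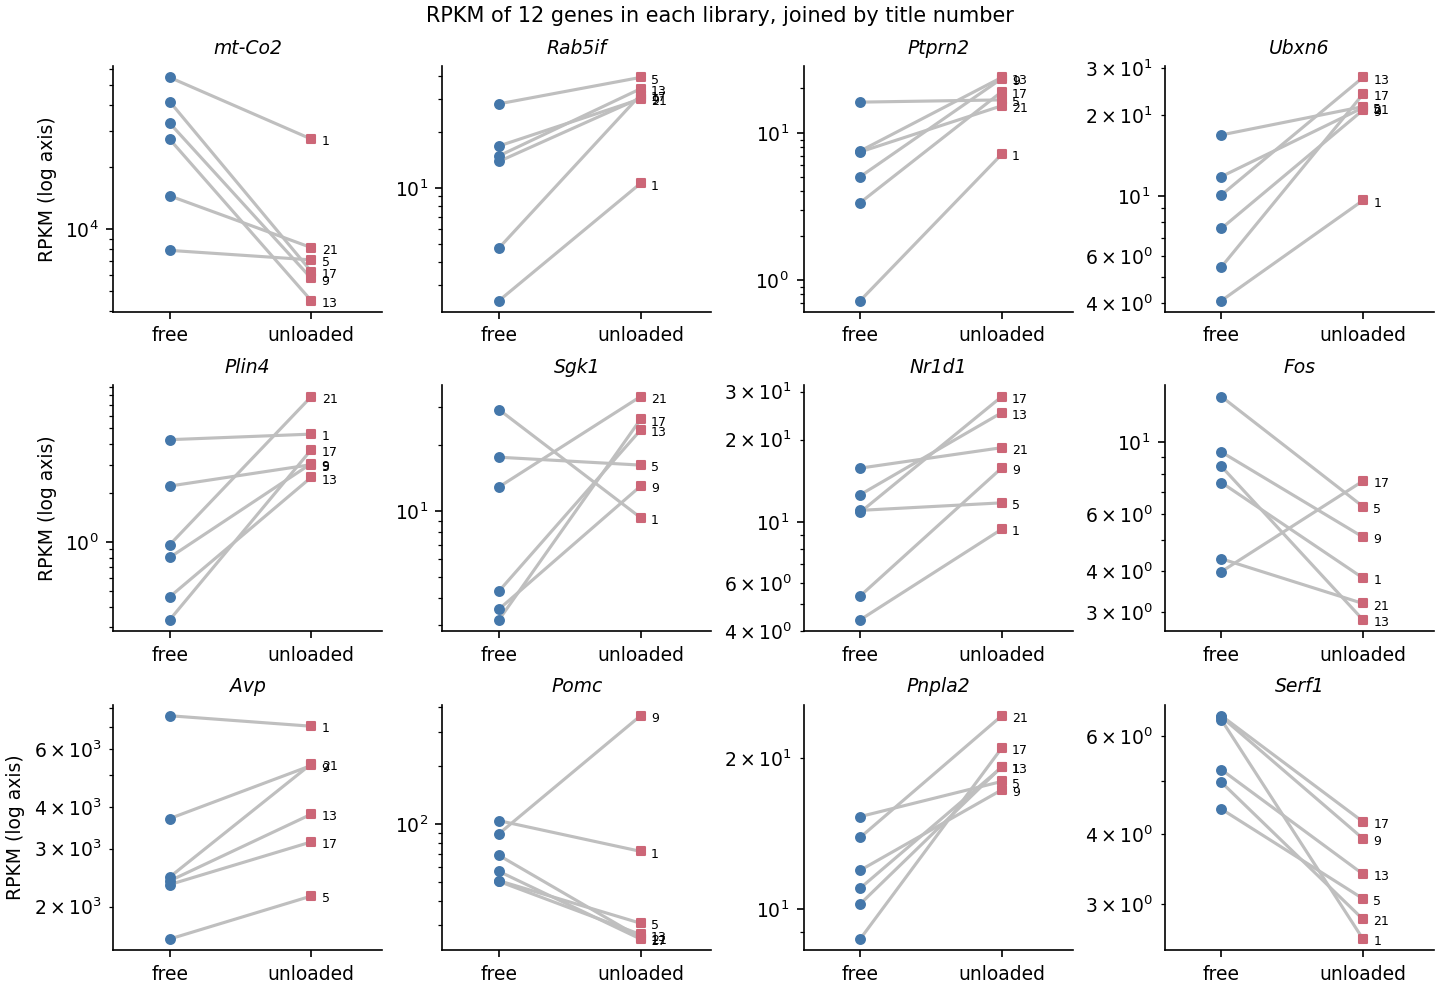
RPKM (y axis, log scale) of 12 genes in each library, circles for free moving and squares for hind limb unloading, joined by title number (printed at the right). Rab5if, Ptprn2 and Ubxn6 are higher at the unloaded end of every line, Serf1 is lower and Pnpla2 higher at that end of every line without overlap between the series, and the lines of Sgk1, Fos and Pomc run in both directions.

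Neuronal and synaptic genes were among the groups that stood above the general shift. Of 16 genes for synaptic vesicles and transmitter release, 12 had an unadjusted p under 0.05 and higher values, against 27.8% of all tested genes, none had lower ones, and the median difference was 0.56, or 0.28 above that of all genes. Sv2a, a vesicle protein present in nearly all synapses, ran from 31.4 through 43.8 to 103.4 RPKM in free-moving and from 40.9 through 112.4 to 134.0 RPKM in unloaded libraries (0.98 ± 0.23, 6 of 6 numbers). Unloaded library 1 was the low one, and the other 5, at 106.2 RPKM and above, lay above every free-moving library. Among 17 potassium channels 9 were higher at that level, with Kcnc1, a channel of fast-firing neurons, at medians of 6.76 and 15.2 RPKM (0.83 ± 0.20). Among 15 ionotropic glutamate receptor subunits 6 were, with Grik3 at 0.86 ± 0.23 and Grin1, the obligatory NMDA receptor subunit, at 0.57 ± 0.17. Of 14 GABA-A receptor subunits only 1 was, although 13 had a higher mean. Pan-neuronal genes gave 5 of 10, with Rbfox3, the nuclear antigen NeuN, at 0.81 ± 0.18 and Syn1, a vesicle-tethering synapsin, at 0.85 ± 0.21, both in 6 of 6 numbers. None of these genes passed over all genes tested (adjusted p of 0.0772 for Sv2a, Kcnc1, Rbfox3, Syn1 and Grik3). In bulk tissue, fewer cells of a type and less RNA per cell cannot be told apart.

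Energy metabolism was divided by genome and by subunit. Of 16 glycolysis enzymes, 11 were higher at an unadjusted p under 0.05 and none lower, against 27.8% and 1.89% of all tested genes. Their median was 0.43, or 0.15 above all genes. Hk1, the hexokinase that traps glucose in brain cells, had 19.3 to 45.2 RPKM in free-moving and 30.0 to 56.7 RPKM in unloaded libraries (0.73 ± 0.17, 6 of 6). The 30 nuclear-encoded respiratory chain subunits split into 9 higher and 5 lower at that level, with a median of 0.08, or −0.20 against all genes. Uqcrc2, a core protein of complex III, was higher (medians 36.9 and 74.0 RPKM; 0.86 ± 0.19). Cox6c, a small subunit of complex IV, was lower, with medians of 256.5 and 178.3 RPKM and a difference of −0.54 ± 0.16 in 5 of 6 numbers. Cytosolic ribosomal proteins had a median of −0.15, or −0.43 against all genes, with 9 of 36 lower and none higher. Rps24 (medians 200.4 and 129.6 RPKM) and Rpl26 (638.6 and 403.5 RPKM) differed by −0.63 ± 0.16 and −0.61 ± 0.17 in 6 of 6 numbers, and free-moving library 1 was the highest for Cox6c, Rps24 and Rpl26. Proteasome subunits gave 4 of 20 higher, below the 27.8% of all genes, with a median of 0.11, or −0.17 against all genes.

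Exon length went along with the difference. With the tested genes split into 5 bins of equal size by exon length, the median log2 difference was 0.11, 0.26, 0.30, 0.32 and 0.35 from the shortest to the longest, and by GC content 0.18, 0.28, 0.31, 0.32 and 0.31. The length trend was steep in number 9 (0.18 to 0.93) and number 17 (0.46 to 0.88), and number 5 went slightly down (0.06 to −0.09).  The part of length in the group differences was not tested.

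**Figure D4:**
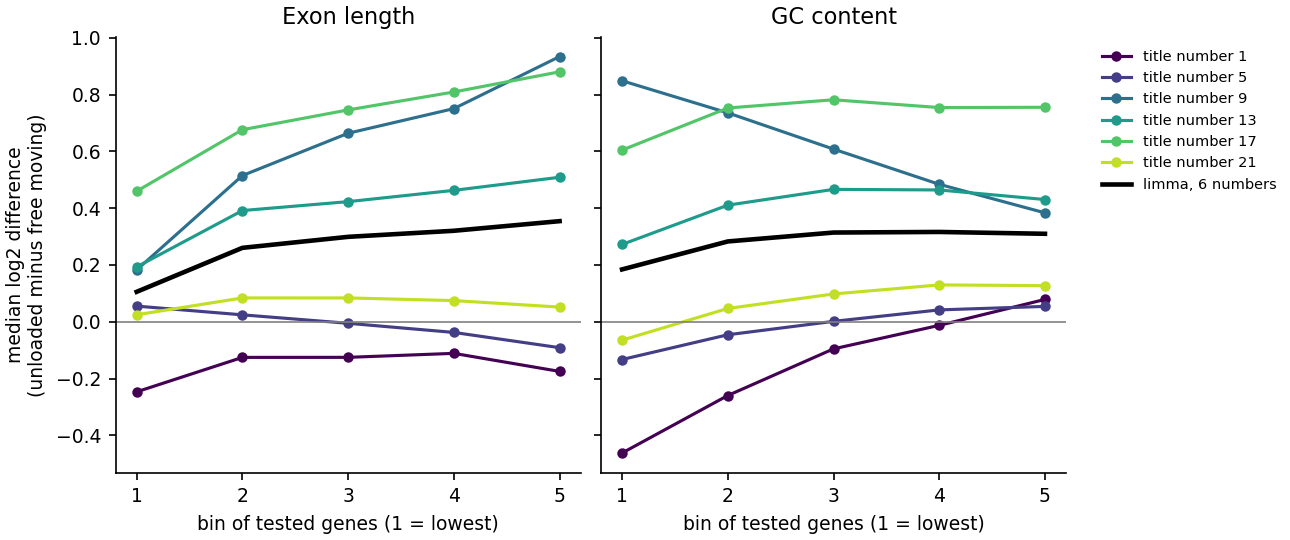
Median log2 difference (y axis, unloaded minus free moving) of tested genes in 5 bins of equal size (x axis, 1 = lowest) of exon length, left, and GC content, right, for each title number (thin lines) and for the limma difference over the 6 numbers (thick line). Numbers 9, 13 and 17 climb with length, and the direction of the GC trend differs between numbers 1 and 9.

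Among the genes induced through the glucocorticoid receptor, 8 of 17 were higher at an unadjusted p under 0.05 and none lower, against 27.8% and 1.89% of all tested genes, with a median of 0.44, or 0.16 above all genes. Plin4, a lipid droplet coat protein, ran from 0.332 through 0.883 to 4.27 RPKM in free-moving and from 2.50 through 3.37 to 7.86 RPKM in unloaded libraries (1.40 ± 0.29, 6 of 6 numbers, adjusted p = 0.0772). Cdkn1a, the cell cycle inhibitor p21, differed by 1.16 ± 0.31 and Fkbp5, a chaperone that dampens the receptor, by 0.87 ± 0.24, each in 5 of 6. Sgk1, a kinase induced by the receptor, was higher in 4 of 6 (medians 8.58 and 19.8 RPKM; 1.09 ± 0.43). Number 1 went the other way for all of Sgk1, Fkbp5 and Cdkn1a, and number 5 also for Sgk1. Without number 1 their differences were 1.63, 1.09 and 1.43. In the second early pair the same 17 genes had a median of 0.26, or 0.08 above all genes, with 4 called higher and 1 lower, against 14.6% and 0.519% of all tested genes.

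Activity-induced transcription factors did not share a direction. Of 17 immediate early genes, 1 was higher and 1 lower at an unadjusted p under 0.05, against 27.8% and 1.89% of all tested genes. Fos, the usual marker of recent neuronal firing, ran from 3.99 through 7.96 to 13.8 RPKM in free-moving and from 2.84 through 4.46 to 7.59 RPKM in unloaded libraries. It was lower in 5 of 6 numbers (−0.62 ± 0.25), while Jun was higher in 5 of 6 (0.60 ± 0.21). All 15 core clock genes had a higher mean in unloading (median 0.34, or 0.07 above all genes), where 83.2% of all genes had one. At that level 4 of the 15 were higher, a share near the 27.8% of all genes. Nr1d1, the repressor REV-ERB alpha, had medians of 10.9 and 17.2 RPKM (0.86 ± 0.20, 6 of 6). Per1 and Per2, repressors of the clock loop, differed by 0.47 ± 0.23 and 0.57 ± 0.25, and Dbp, an output factor, by 0.58 ± 0.21, each in 5 of 6.

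Hypothalamic peptides showed small differences with wide spread. Avp, the antidiuretic hormone vasopressin, ran from 1596 through 2427 to 7580 RPKM in free-moving and from 2154 through 4585 to 7047 RPKM in unloaded libraries (0.52 ± 0.20, higher in 5 of 6). Both number 1 libraries were the highest of their series. Oxt, oxytocin, was lower in 6 of 6 numbers, but by only −0.23 ± 0.17. Trh, which drives the thyroid axis, and Th, the first enzyme of dopamine synthesis, were higher in 5 of 6 (0.53 ± 0.19 and 0.62 ± 0.21). Crh, which starts the stress axis, had medians of 8.06 and 9.09 RPKM (0.24 ± 0.22) and turned to −0.06 after median centring. Of 11 tested feeding and arousal peptides 1 was higher and 1 lower at an unadjusted p under 0.05, against 27.8% and 1.89% of all tested genes. Pmch, melanin-concentrating hormone, ran from 70.9 through 106.3 to 388.7 RPKM in free-moving and from 40.5 through 303.1 to 485.0 RPKM in unloaded libraries (0.75 ± 0.33, higher in 4 of 6). Cartpt, a satiety peptide, was lower (−0.40 ± 0.16, 5 of 6), with free-moving library 1 highest at 159.3 RPKM.

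The hunger peptides Agrp and Npy differed by 0.17 ± 0.22 and 0.29 ± 0.18, each higher in 4 of 6 numbers, and under median centring they stood at −0.14 and −0.02. Hcrt, orexin, differed by 0.40 ± 0.19. Pomc, precursor of the satiety signal α-MSH, was lower in 5 of 6 numbers, with medians of 63.0 and 28.9 RPKM. Its fitted difference was −0.44 ± 0.33 with unloaded library 9 at 362.3 RPKM, the library with the pituitary transcripts, and −0.94 ± 0.19 without number 9. The pituitary also makes Pomc. The 5 other unloaded libraries had 25.5 to 72.4 RPKM and the free-moving libraries 50.6 to 104.2 RPKM.

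Markers of other cells and of neighbouring tissue were read in the same way. The shares of all tested genes at an unadjusted p under 0.05 were 27.8% higher and 1.89% lower. Of 13 myelin and oligodendrocyte genes 4 were higher and 2 lower at that level. Sox10, the transcription factor of the lineage, was higher in 6 of 6 (0.46 ± 0.15). Microglia gave a mixture as well: Csf1r, the receptor that keeps them alive, was higher by 0.56 ± 0.18 in 6 of 6, and Aif1, the small protein Iba1, was lower by −0.65 ± 0.21 in 5 of 6. Of 11 astrocyte genes 10 had a higher mean, 4 of them at an unadjusted p under 0.05, with Atp1b2, a sodium pump subunit, at 0.89 ± 0.19. S100b was the 1 lower gene (−0.47 ± 0.17, also at that level). In the ventricle lining, Foxj1 differed by 0.48 ± 0.18 and Ccdc153 by −0.53 ± 0.16. In each of these 4 lists, members of 1 cell type lay on both sides.

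Blood cell markers were lower for all 7 genes on the fitted mean. Of these, 4 had an unadjusted p under 0.05, against 1.89% of all tested genes lower at that level. Their median was −0.57, or −0.84 against all genes. Their summed level was 812.9 to 6255 RPKM in free-moving and 529.1 to 4253 RPKM in unloaded libraries, highest in both number 1 libraries. Hbb-bs, adult beta globin, had medians of 434.4 and 252.8 RPKM (−0.62 ± 0.24), and near-identical globin copies may share reads. Endothelial genes were higher for all 10 on the mean, with 2 at that level, Pecam1 at 0.58 ± 0.19. Thalamus, striatum, and cortex and hippocampus markers gave 1 of 10, 3 of 10 and 2 of 8 higher, and 0 lower. The endothelial and these 3 counts lay below or near the 27.8% of all genes higher at that level. The striatum sum ran from 132.3 to 612.1 RPKM in free-moving and from 157.3 to 493.7 RPKM in unloaded libraries. Choroid plexus markers were low in all libraries: Ttr, transthyretin, had medians of 3.84 and 8.05 RPKM with unloaded library 5 at 30.2 RPKM. Its difference of 1.25 ± 0.46 moved to 0.57 without number 5. The part of these cells in the other gene groups was not tested.

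Stress and housekeeping programmes are given as members at an unadjusted p under 0.05, where 27.8% of all tested genes were higher and 1.89% lower. Of 13 heat shock chaperones 3 were higher, with a median of 0.22, or −0.05 against all genes. Hspa1a, the inducible HSP70 gene with a near-identical neighbour, differed by 0.82 ± 0.26 with free-moving library 5 high at 12.4 RPKM. Of 15 unfolded protein response genes 4 were higher and 1 lower, with Chac1, a glutathione-degrading enzyme induced by the integrated stress response, at 0.72 ± 0.19. Cholesterol synthesis had 6 of 17 higher, hypoxia targets 6 of 14, antioxidant genes 5 of 14 and thyroid hormone genes 3 of 8. These 4 counts lay above the share of all genes, and the medians were −0.03, 0.06, 0.06 and 0.03 against all genes. Among the thyroid hormone genes Hr, a corepressor induced by thyroid hormone, had medians of 3.35 and 7.22 RPKM (0.86 ± 0.21). Interferon-stimulated genes had 0 of 16 in either direction, with a median of −0.08, or −0.36 against all genes.

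**Figure D5:**
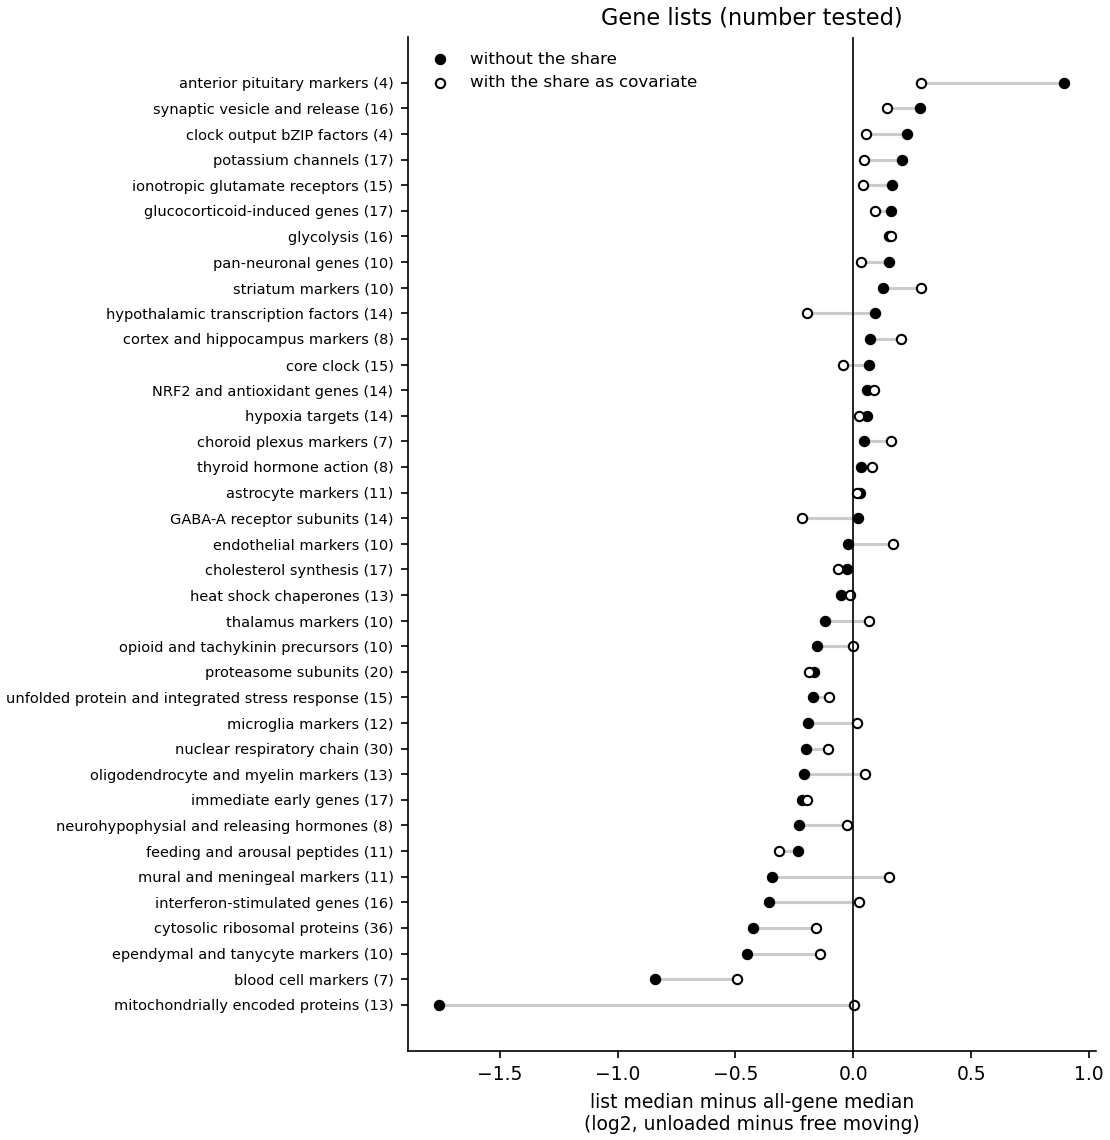
For each gene list with at least 4 tested members (number in brackets), the median log2 difference minus that of all tested genes (x axis), filled points without and open points with the mitochondrial share as covariate. Synaptic vesicle genes lie at 0.28 without and 0.14 with the share, ribosomal proteins at −0.43 and −0.16, and mitochondrially encoded genes at −1.76 and 0.00. The share is computed from the mitochondrially encoded genes themselves, so their value with it is set by the covariate and is no result.

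With the log2 odds of the mitochondrial share as a further term, the term itself was called for 6940 of 13685 genes (50.7%), higher with the share for 125 and lower for 6815. For the difference between the series 0% of genes passed, with a smallest adjusted p of 0.334. At an unadjusted p under 0.05 there were 4.51% of genes higher (617) and 9.38% lower (1283), and the median difference of all genes was −0.06. Without number 1, the pair in which the share went the other way, they were 0.351% higher (48) and 1.45% lower (199). The shares of the remaining libraries do not overlap between the series (18.7% to 62.4% and 11.2% to 18.5%), so share and series can hardly be told apart among them. Values with the covariate therefore lean on number 1, where free-moving library 1 stands apart. For the genes named below they are given also without it, and for the groups as counts.

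The groups that led without the covariate lost most of their members at the unadjusted level. With the share, synaptic vesicle genes gave 1 higher and 1 lower of 16, potassium channels 1 and 1 of 17, glutamate receptors 0 and 1 of 15, GABA-A receptors 0 and 4 of 14, and pan-neuronal genes 1 and 1 of 10. Glycolysis gave 3 of 16 higher, with Hk1 at 0.39 ± 0.16 (0.03 without number 1). Glucocorticoid-induced genes gave 1 higher and 1 lower of 17 with a median of 0.03, or 0.09 above all genes. Plin4 stood at 0.76 ± 0.33 (1.12 without number 1), Fkbp5 at 0.26 ± 0.19 (0.51 without number 1), and Sgk1 at −0.42 ± 0.25 (0.09 without number 1). Core clock genes had a median of −0.10, or −0.05 against all genes, and Nr1d1 went from 0.52 ± 0.22 to −0.07 without number 1. Fos stayed lower (−0.89 ± 0.33, and −0.98 without number 1). Proteasome subunits gave 0 higher and 8 lower of 20, and nuclear respiratory subunits 1 higher and 9 lower of 30, against the 9.38% lower of all genes. Without number 1 the synaptic vesicle, potassium channel, glutamate receptor, GABA-A receptor, pan-neuronal, glycolysis, clock, proteasome and nuclear respiratory groups gave 0 in either direction. Glucocorticoid-induced genes gave 2 higher and 0 lower. Striatum markers gave 5 higher and 0 lower of 10, with a median of 1.12 where all genes had −0.10 (1 and 0 with number 1 kept, median 0.23). Choroid plexus markers gave 2 higher and 0 lower of 7. Immediate early genes and feeding and arousal peptides each gave 0 higher and 2 lower. The part of neighbouring tissue in these values was not tested. In that fit only 0.351% of all tested genes were higher and 1.45% lower at the unadjusted level. A count of 0 in a list of this size therefore says little about its genes. Pmch turned to −0.37 ± 0.22 (−0.41 without number 1), while Th stood at 0.85 ± 0.27 (0.18 without number 1).

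Genes with the smallest p without the covariate stayed far above 0 with it only as long as number 1 was kept. On leaving it out, Ptprn2 went from 1.38 ± 0.40 to 0.11 and Ubxn6 from 0.79 ± 0.20 to 0.29. Rbfox3 went from 0.59 ± 0.19 to 0.20. Uqcrc2 and Atp1b2 went from 0.64 ± 0.22 and 0.71 ± 0.25 to −0.0035 and −0.06.

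The genes with the smallest p under the covariate were all lower in unloading. Wfdc17, a small secreted protein of myeloid cells, ran from 0.384 through 0.742 to 1.72 RPKM in free-moving and from 0.179 through 0.293 to 0.688 RPKM in unloaded libraries (−1.06 ± 0.19, adjusted p = 0.334; −0.83 without number 1). These values lie near the pseudocount of 0.5, and free-moving library 1 was the highest. Serf1, a small protein that promotes amyloid aggregation, on chromosome 13 (100108012 to 100114571, plus strand), ran from 4.44 through 5.83 to 6.54 RPKM in free-moving and from 2.59 through 3.23 to 4.22 RPKM in unloaded libraries. It was lower in 6 of 6 with no overlap (−0.69 ± 0.18 without the covariate and −0.83 ± 0.16 with it; −0.58 without number 1). Lst1, a leukocyte transcript, ran from 2.50 through 4.05 to 11.6 RPKM and from 1.82 through 2.09 to 2.27 RPKM, again with no overlap (−1.42 ± 0.28; −0.78 without number 1). Smim22, a small membrane protein, and Gadd45a, a growth arrest gene, stood at −1.32 ± 0.27 and −0.83 ± 0.17 (−0.87 and −0.51 without number 1), and free-moving library 1 was the highest of the 12 for both (7.87 and 12.8 RPKM). Without the covariate Smim22 and Gadd45a differed by only −0.62 ± 0.26 and −0.28 ± 0.22, each lower in 4 of 6 numbers. In the second early pair, without the covariate, Wfdc17, Serf1 and Gadd45a stood at 0.32, 0.14 and 0.36. Lst1 and Smim22 stood at −0.43 and −0.01 there.

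In the fit over all 48 libraries with the covariate, 5 genes passed, named here after their values were seen. The limit given above for the shared spread holds for these calls too. Serf1 fell by 0.77 ± 0.15 (adjusted p = 0.0168), Mlf1, a centrosomal and nuclear protein linked to cilia, fell by 0.98 ± 0.15 (adjusted p = 0.00180), and Ddx10, an RNA helicase of ribosome assembly, fell by 0.67 ± 0.13 (adjusted p = 0.0168). Pnpla2, the lipase that starts the breakdown of stored triglycerides, rose by 0.55 ± 0.10 (adjusted p = 0.0168), and Prodh, proline dehydrogenase, by 0.42 ± 0.09 (adjusted p = 0.0387). Pnpla2, on chromosome 7 (141455198 to 141460743, plus strand), ran from 8.72 through 11.5 to 15.3 RPKM in free-moving and from 17.3 through 19.2 to 24.3 RPKM in unloaded libraries, with no overlap. It was higher in 6 of 6 numbers, number 1 included. In the 12 libraries with the covariate it stood at 0.62 ± 0.17, and at 0.35 without number 1, while Mlf1 moved from −1.02 to −0.53. Prodh kept nearly the same difference in these fits: 0.43 ± 0.15 without the covariate in the 12 libraries, 0.41 ± 0.14 with it, and 0.41 with it and without number 1. In the 12 libraries alone neither gene passed.

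The second early pair of series, with the same labels and none of these libraries, gave a smaller general shift. Its median log2 difference was 0.18, with 14.6% of genes called higher (1994) and 0.519% lower (71). Of those 2065 genes, 1957 (94.8%) had the same sign here, beside 83.5% of all tested genes. In a test of the difference between the pairs over the 24 early libraries 0 genes passed (limma, smallest adjusted p = 0.308), with 582 at an unadjusted p under 0.05. Over 48 libraries, with the same limit on the shared spread, Prlh, Mlf1 and Smc4 passed. With the share as covariate over the 24 early libraries, Serf1 and Mlf1 passed. Prlh, a feeding-related RF-amide peptide, stood at −0.47 ± 0.24 here and 1.39 in the second pair (difference −1.87 ± 0.36, adjusted p = 0.0443). Mlf1 stood at −0.72 ± 0.21 and 0.35 (with the share, difference −1.26 ± 0.20, adjusted p = 0.0322), Serf1 at −0.69 ± 0.18 and 0.14 (with the share, −0.90 ± 0.14, adjusted p = 0.0322), and Smc4, a condensin subunit, at −0.34 ± 0.18 and 0.55. Ptprn2 and Ubxn6, which were among the leading genes here, stood at 0.41 and 0.23 in the second pair. Pmch (1.03) and Agrp (0.85) stood further from 0 there than here, and the difference between the pairs passed for neither.

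Without number 5, in which both libraries had a low mitochondrial share, the fit without the covariate called 7.37% of genes higher (1009) and 0.519% lower (71). Of the listed groups, 6 of 16 synaptic vesicle genes, 4 of 16 glycolysis genes and 4 of 17 glucocorticoid-induced genes then rose. So did 3 of 10 pan-neuronal genes, 3 of 13 heat shock chaperones and 3 of 17 potassium channels. Calls of lower genes were 8 of 13 mitochondrial and 4 of 36 ribosomal genes. The 30 nuclear respiratory genes split, with 3 lower and 2 higher. Without any other number 0 genes passed.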

How the data were processed

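RNA sequencing of pooled hypothalamus was read from the table of RPKM values deposited by the authors, for 21558 genes in 48 libraries. Per the submitters' processing notes CASAVA 1.8 and HISAT were used, with no genome build, annotation, counting method or depth given in the sources used here. Depth was estimated from RPKM steps with GENCODE M21 exon lengths, where 62.8% to 68.2% of values up to 12 reads were whole within 0.02 reads against 4% by chance, too few for a count test. A mean of 0.5 RPKM or more over the 48 libraries was required, which left 13685 genes, and log2(RPKM + 0.5) was analysed. Series and title numbers came from the labels.

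The difference between the series was fitted with limma 3.58.1 in R 4.3.3 on the 12 libraries with the title number as a block (5 residual degrees of freedom, or 4 with the covariate), an intensity trend and two-sided p-values with Benjamini-Hochberg adjustment over all tested genes. The covariate was the log2 odds of the share of summed RPKM in the 13 mitochondrial genes. Genes under an adjusted p of 0.05 count as called. Log2 differences carry their standard error after ±, and group counts at an unadjusted p are descriptions. The fits were tested on simulated data. Gene positions and lengths were matched by symbol (98.8% of tested genes have a length).

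The series compared, the gene lists (39, from textbook knowledge) and the tests were chosen with earlier results of these data known. Named genes are the 5 with the smallest p of each fit, since fewer than 5 passed, up to 4 members of each list by smallest p, and a fixed set of peptide, stress and clock genes. Not all are printed, and genes from counts of 5 or fewer were added after their values were seen. Alternatives were a pseudocount of 0.1, no filter, quantile normalization, median centring, 24 or 48 libraries, no block, library weights, the plain share and leaving out each title number. Some items the rule returns are not reported here. Raw reads were not analysed here.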

Additional observations from a re-analysis of the deposited data

Results flagged for a closer look

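In 30 of 130 sets of 6 libraries examined, 1 library lay far from the nearest of the others by Dixon's ratio at its critical value, where chance gives about 1 in 20. In the free-moving series it was mostly library 1, the shallowest, which was the high one for Wfdc17 (1.72 RPKM), Lst1 (11.6), Smim22 (7.87), Avp (7580), Cartpt (159.3), Fkbp5 (10.9), Cox6c (438.6), Rps24 (398.3) and Rpl26 (1296). Free-moving library 5, with a low mitochondrial share, was the high one for Arl10 (11.02 RPKM), Pecam1 (5.39) and Hspa1a (12.4). In the unloaded series library 1 stood apart most often. It had a mitochondrial share of 48.2% and high values of mt-Co1 (83965 RPKM), mt-Co2 (27437), mt-Nd3 (4076), mt-Nd6 (6320), mt-Nd4l (7828) and Prlh (5.08). The same library was the low one for Rab5if (10.6 RPKM), Syn1 (59.1), Sv2a (40.9), Kcnc1 (6.25), Hk1 (30.0), Uqcrc2 (32.6), Atp1b2 (96.6) and Ddx10 (0.937). Single high values were those of Wfdc17 in unloaded library 17 (0.688 RPKM), Pomc in library 9 (362.3) and Ttr in library 5 (30.2).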

How the results depend on the processing

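Counts of genes called depended on the spread and on single pairs. Without the covariate 0 genes were called with a pseudocount of 0.1, no filter, quantile normalization, median centring and no replicate block, but 5748 with all 48 libraries, 3086 with the 24 early libraries and 2311 with library weights, whose estimate stopped before its tolerance was met. Leaving out each title number gave 0 to 1080, the latter without number 5. With the covariate there were 5 with 48 libraries, 1 with the 24 early libraries (Serf1) and 0 to 12 on leaving out each number. Between the 2 early pairs 3 passed with 48 libraries and 2 with the covariate, and 0 otherwise. At an unadjusted p under 0.05 the split of 3801 higher and 258 lower was 1840 and 1771 after quantile normalization and 1419 and 2150 after median centring. The mitochondrial difference was −27.7 to −15.9 points on leaving out each number. Without the replicate block it was the same −21.2 points with an exact permutation p of 0.0303. Libraries of 1 number deviated together in 3 of 6 pairs (r over 0.1) and correlated best with their own number in 1 of 6, so the pairing rests on the titles.

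Of 64 named genes without the covariate, 60 kept 1 sign under all 14 alternatives. Quantile normalization turned mt-Co1 to 0.19, Crh to −0.052 and Agrp to −0.035. Median centring turned Crh to −0.064, Agrp to −0.14 and Npy to −0.020, and Agrp ran from −0.046 to 0.38 on leaving out each number. Of 24 genes with the covariate, 20 kept 1 sign under 12 alternatives. Sgk1 turned to 0.33 with 48 libraries and 0.28 with 24. On leaving out each number Sgk1 ran from −0.69 to 0.086, Nr1d1 from −0.070 to 0.75, Uqcrc2 from −0.0035 to 0.91 and Atp1b2 from −0.063 to 1.04. The cause of these changes was not tested. The second early pair, with the same 6 pools a series and 5 residual degrees of freedom, gave 2065 called genes.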
